A study of Arabidopsis thaliana with 6 samples.

Results

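The SR and RS splicing factors of *Arabidopsis thaliana* examined here are 8 genes chosen by locus identifier, of 33314 genes in the deposited tables. The SR genes are *SR30* (AT1G09140), *SR34* (AT1G02840), *SR34a* (AT3G49430) and *SR34b* (AT4G02430), and the RS genes are *RS31* (AT3G61860), *RS31a* (AT2G46610), *RS40* (AT4G25500) and *RS41* (AT5G52040). Their levels and isoforms were compared between *fio1-1*, *fio1-5* and Col-0. *fio1-1* is a chemically induced allele that removes a short stretch of the FIO1 protein, and *fio1-5* carries a deletion made by genome editing, with altered residues at its edges. The study regards both as likely loss-of-function alleles. It also names remaining FIO1 activity, or a role of the protein apart from methylation, as possible, since plants with larger deletions of the gene showed seed defects that these alleles lacked. Col-0 is the wild type, and the labels give Col-0 as the ecotype of all plants. Whole seedlings were collected 14 days after sowing on MS medium in long days, and the seedlings of 1 line were pooled. The labels list 2 libraries per genotype, but the tables hold 1 column for each, called a library here. Differences therefore carry no replicate check, no test between genotypes was possible, and the intervals given cover counting error only.

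SR proteins bind exonic sequences of the pre-mRNA and bring the U1 and U2AF factors to nearby splice sites. Each has RNA recognition motifs at its start and a tail rich in arginine and serine that kinases phosphorylate. The SR subfamily is the plant counterpart of human SRSF1, whereas the RS subfamily is found only in plants. The genes are themselves alternatively spliced, usually in 1 long intron, and several of the resulting mRNAs stop translation early. Such mRNAs are commonly removed by nonsense-mediated decay or held in the nucleus, which lowers the amount of protein. FIO1, the homologue of human METTL16, methylates the U6 snRNA at a base of the segment that pairs with the 5′ splice site (donor).

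The longest proteins of the 8 genes, translated from the TAIR10.1 models, have 250 (*RS31a*) to 357 (*RS41*) residues. Arginine stands next to serine 33, 46, 45 and 37 times in *SR30*, *SR34*, *SR34a* and *SR34b*, against 10, 8, 15 and 21 times in *RS31*, *RS31a*, *RS40* and *RS41*. The closest pairs are *SR34* with *SR34b* (80.1% identical residues over the shorter protein), *RS40* with *RS41* (78.6%) and *RS31* with *RS31a* (77.2%). The mRNAs of these pairs differ enough to be told apart, since at most 1.3% of the 31-base stretches of any of the 8 genes occur in a transcript of another gene.

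In all 4 RS genes the longest intron of the isoform with the longest protein is intron 2 of 5. In *SR30*, *SR34* and *SR34b* it is intron 10, of 11 introns in *SR30* and 12 in the others. *SR34a* differs, with its longest intron before the start codon, as intron 1 of 12. These introns have 398 (*SR34b*) to 942 (*SR30*) bases, against a median of 101 bases over 134653 annotated introns, and in 7 of the 8 genes they exceed 97.9% or more of annotated introns. Isoforms were grouped by what they do with this intron, because most of the annotated isoforms of the 8 genes differ there. The windows below are shown because the counted isoforms of *SR30*, *RS40* and *RS31a* part at these sites. Those of *SR34b* part at its donor and at an acceptor inside the acceptor window shown. Each has 30 bases of the TAIR10.1 reference, 5′ to 3′ in the sense of the gene. Capitals mark the first 6 intron bases at a donor or the last 3 intron bases at an acceptor (3′ splice site).

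*SR30* uses 1 donor with a distal and a proximal acceptor, on the minus strand of chromosome 1 (chr1:2944149-2944178, chr1:2943221-2943250 and chr1:2943559-2943588).
SR30 donor: ctgtctcaagGTATGAgtgttagatttgta
SR30 distal acceptor: atggggtttttggtcttgctgCAGgtccca
SR30 proximal acceptor: tgtattgcgttgtttgttttcTAGatctgg
The distal acceptor removes the whole intron of 942 bases and the proximal one only 604 bases, which leaves 338 more bases in the mRNA. TAG ends 28.2% of annotated acceptors and CAG 62.9%. The donor letters GTATGA begin 1.6% of the introns counted at 129701 annotated donors.

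*RS40* can keep an inner exon of 257 bases (13025600 to 13025856) within its long intron on the plus strand of chromosome 4. The 4 sites lie at chr4:13025264-13025293, chr4:13025576-13025605, chr4:13025847-13025876 and chr4:13026032-13026061.
RS40 outer donor: atgaaagctgGTGAGCcttttttttctttc
RS40 inner acceptor: aaaaccgcattttctttgacgCAGgatgtg
RS40 inner donor: ataatgcaagGTCTGTaactgcttcactgg
RS40 outer acceptor: tttggctttttcttttttctcCAGggtttg
GTCTGT at the inner donor begins 0.487% of annotated donors and GTGAGC at the outer donor 0.671%. The paralog *RS41* carries the same letters at its own inner donor (chr5:21131878-21131907, plus strand), where 20 of 30 positions match *RS40*. At its outer donor (chr5:21131177-21131206) 22 of 30 positions match, but the intron begins with GTAAGT, found at 9.06% of annotated donors.
RS41 outer donor: atgaaagctgGTAAGTcttggttcttgttt
RS41 inner donor: ataatgcaagGTCTGTaaaactacttatag

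In *RS31* and *RS31a*, both on the minus strand, the donor of intron 2 (chr3:22902034-22902063 and chr2:19138367-19138396) matches at 20 of 30 positions. *RS31a* has a second, inner donor (chr2:19137811-19137840), whose letters GTGTTG begin 0.047% of annotated donors. The exon ends of the 4 RS genes resemble each other, as the first 10 letters of the RS31 donor line and the outer donor lines show.
RS31 donor: atgaaatctgGTAAAGtgtcttctaagtta
RS31a outer donor: atgaagtctgGTAAAAcgttttcttgcact
RS31a inner donor: attgatgcagGTGTTGtatatttatttagt

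The intron of *SR34b* (1070887 to 1071284 on the plus strand of chromosome 4) has a donor at chr4:1070877-1070906 and an acceptor at chr4:1071261-1071290, with another acceptor 11 bases before it. The isoform that uses the acceptor in capitals, AT4G02430.4, had 0 counts. The counted isoforms with a model that splice this intron use the earlier acceptor, the lower-case tag in the same line. The donor letters GTATGC begin 1.2% of annotated donors.
SR34b donor: ctccacgaggGTATGCttcatttcttctat
SR34b acceptor: ccattgctgctagatgggtaaCAGtggaga
A match of letters is a description of these windows and does not show which factor uses a site.

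The libraries hold 4351543 (*fio1-1*), 4682799 (*fio1-5*) and 4602836 (Col-0) estimated counts. By the labels every genotype was sequenced on Illumina and on Nanopore, and the column names do not say which data they hold. They were read as Nanopore direct RNA, the assay the paper ties to this series, but the values do not settle this. The ratio of count to TPM follows transcript length less 249 bases, an effective length of the kind used for sequenced fragments, and 39.3 to 41.8% of the counts above 0 are not whole within 0.001. *FIO1* itself had 17, 30 and 25 counts in *fio1-1*, *fio1-5* and Col-0, and these do not check the labels, because both alleles alter the gene's own sequence. The 4 root markers sum to 1766 counts in *fio1-1* and 1663 in *fio1-5*, against 654 in Col-0, which are 2.96 and 2.59 times the Col-0 level after scaling. The 3 flower markers had 0 to 2 counts in all, and the 4 green shoot markers 52097 in *fio1-1* and 75027 in *fio1-5*, against 48261 in Col-0, or 1.18 and 1.58 times Col-0 after scaling. Single green markers moved in both directions in *fio1-1*, with log2 ratios of 0.79 for LHCB2.1 and −1.01 for CA1. In *fio1-5* these ratios were 1.47 and −0.01. CA1 was thinly counted, with 17, 37 and 38 counts in *fio1-1*, *fio1-5* and Col-0, and its interval in *fio1-1* was −1.95 to −0.17. RCA had log2 ratios of −0.22 in *fio1-1* and 0.13 in *fio1-5*, with intervals that include 0. Of the root markers, 3 passed the filter and had positive log2 ratios in both mutants, and NRT2.1 had 3, 1 and 0 counts. Seedling tissue was thus shown by its green markers, and root and green markers summed to a larger share of counts in both mutants. RBCS1A led the green sum, with 41810, 57331 and 41644 counts in *fio1-1*, *fio1-5* and Col-0. The median log2 ratio of the 4 green markers was −0.04 in *fio1-1* and 0.31 in *fio1-5*. The seed marker CRA1 had 47 and 43 counts in *fio1-1* and *fio1-5*, against 29 in Col-0. The part of these marker differences in the results on the splicing factors was not tested.

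Counts were low where a gene has many isoforms in the tables. In Col-0, the median over genes with at least 1 count was 59 for genes with 1 isoform, 17 with 3, 10 with 6 and 5.5 with 10. *RS31* has 1 isoform, *SR30* 3, *RS31a* 4, *SR34b* 6, *SR34a* and *RS41* 7 each, *RS40* 8 and *SR34* 10. Levels of different members should therefore be read with their isoform number, whose part in them was not tested. Reads that fit several isoforms may be missing from these tables, so a low count of a gene with many isoforms may understate it. Fewer cells that express a gene and less RNA per cell cannot be told apart in whole seedlings.

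*RS31* and *SR30* had the highest levels per length in every library, and *RS40* was the next. Summed TPM values (a level per isoform length, scaled to the same total in each library) of *RS31* were 14.8 in *fio1-1* and 11.1 in *fio1-5*, against 20.4 in Col-0. *SR30* had 10.4, 8.51 and 15.9 TPM in the same order of genotypes, and *RS40* had 6.25, 6.48 and 9.96 TPM. The intervals of *RS31* and *SR30* overlapped in every library, for example 17.1 to 24.3 against 13.5 to 18.7 TPM in Col-0. *SR30* and *RS40* did not overlap in *fio1-1* (8.42 to 12.6 against 4.71 to 8.14 TPM) or Col-0 (13.5 to 18.7 against 7.96 to 12.3 TPM), but did in *fio1-5*. The other 5 genes lay at or below 4.24 TPM. In Col-0 their order was *SR34b* (4.24 TPM), *RS31a* (2.76), *RS41* (2.06), *SR34a* (1.54) and *SR34* (0.12), and neighbours in this order overlapped except *SR34a* and *SR34*. In *fio1-1*, *RS41* (2.32 TPM) stood above *SR34b* (1.36 TPM), with overlapping intervals.

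**Figure D1:**
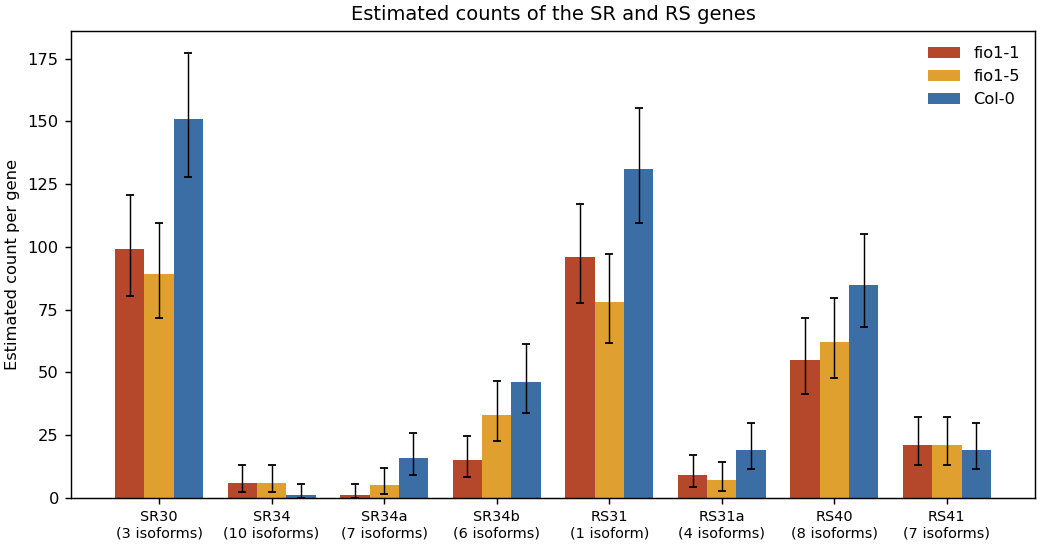
Estimated counts per gene (vertical axis) of the 8 SR and RS genes in *fio1-1*, *fio1-5* and Col-0, 1 library each, with the number of isoforms in the tables under each name. Bars are counts and error bars exact Poisson 95% intervals. Col-0 has the highest bar for *SR30* (151), *SR34a*, *SR34b*, *RS31* (131), *RS31a* and *RS40* (85), but not for *SR34* and *RS41*.

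Together the 8 genes had fewer counts in both mutants. They summed to 302 in *fio1-1* and 301 in *fio1-5*, against 468 in Col-0. After scaling this was 0.707 times Col-0 in *fio1-1* (interval 0.61 to 0.819) and 0.654 times in *fio1-5* (0.564 to 0.758). The sum was led by *SR30*, *RS31* and *RS40*. Listed genes that work with SR proteins also summed to less than Col-0. In *fio1-1* and *fio1-5* the other SR proteins had 0.878 and 0.871 times Col-0, and the U1 and U2AF genes 0.826 and 0.806. The kinase and import genes had 0.880 and 0.871, and the genes of nonsense-mediated decay 0.870 and 0.860. A lower sum was thus not particular to the 8 genes. 6 of 8 genes were below Col-0 in each mutant, as were 50.5% of all genes tested in *fio1-1* and 49.5% in *fio1-5*. The median log2 ratio of the 8 genes was −0.48 in *fio1-1* and −0.58 in *fio1-5*. Medians were −0.01 and 0.01 over the 16426 genes tested, which had at least 20 counts over the 3 libraries. The 7 members that passed this filter had medians of −0.49 and −0.72. Both comparisons share the Col-0 library, so a high or low value there enters both. Of the 8 genes, 7 passed the filter of 20 counts, *SR34a* only through its high Col-0 count, and *SR34* with 13 counts did not. *RS31a*, with 9 and 7 counts in *fio1-1* and *fio1-5*, also needed Col-0 counts to pass.

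The following numbers describe the members and support no statement about them as a group, since *SR34a* could pass the filter only by being high in Col-0. At a cutoff of 2-fold, *SR34a* and *SR34b* were lower in *fio1-1*, where 4.29% of all genes tested were, and 0 members were higher, against 9.5%. In *fio1-5*, *SR34a* and *RS31a* were lower, against 4.3% of all genes, and 0 members were higher, against 7.43%. These calls fell on the thinly counted members, not on the well counted ones. The counting interval of the ratio lay wholly below 1 for *SR30*, *SR34a* and *SR34b* in *fio1-1*, against 15.0% of all genes tested. In *fio1-5* this held for *SR30*, *SR34a*, *RS31* and *RS31a*, against 14.8%.

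*SR30* is known to alter its own splicing when it is overproduced. It had 99 counts in *fio1-1* and 89 in *fio1-5*, against 151 in Col-0. Before scaling for library size, the Poisson intervals of 80.5 to 120.5 and 71.5 to 109.5 did not reach that of Col-0 (127.9 to 177.1). The libraries differ in size, so the ratio of scaled counts is the comparison to read. The log2 ratio was −0.48 in *fio1-1* (95% interval −0.86 to −0.10) and −0.73 in *fio1-5* (−1.13 to −0.35). Between the mutants it was −0.26 in *fio1-5* relative to *fio1-1* (−0.69 to 0.17), an interval that includes 0.

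*SR34*, the best known counterpart of SRSF1, was barely counted. It had 6 counts in *fio1-1* and 6 in *fio1-5*, against 1 in Col-0, spread over 6 of its 10 isoforms with at most 3 counts for any isoform. The log2 ratios of 2.22 (−0.33 to 8.24) and 2.14 (−0.43 to 8.13) rest on the single Col-0 count and a difference was not detectable at this depth. From deposited TPM, with 0.5 TPM added, they were 0.85 and 0.80. *SR34a* had 1 count in *fio1-1* and 5 in *fio1-5*, against 16 in Col-0. Its log2 ratio was −3.35 in *fio1-1* (−9.26 to −1.18) and −1.56 in *fio1-5* (−3.46 to −0.14), and the value in *fio1-1* depends on 1 count. With 2 counts added it was −2.51, and from deposited TPM with 0.5 TPM added −1.85.

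*SR34b* was the only member whose interval between the mutants did not include 0. It had 15 counts in *fio1-1* and 33 in *fio1-5*, against 46 in Col-0. The *fio1-1* interval (8.4 to 24.7) lay below that of Col-0 (33.7 to 61.4), whereas the *fio1-5* interval (22.7 to 46.3) overlapped it. The log2 ratio was −1.46 in *fio1-1* (−2.43 to −0.62) and −0.45 in *fio1-5* (−1.15 to 0.22). In *fio1-5* relative to *fio1-1* it was 1.01 (0.11 to 2.02). In that comparison *SR34a* and *SR34b* were at least 2-fold higher in *fio1-5*, against 3.26% of all genes tested, and 0 members were lower, against 4.96%. From deposited TPM with 0.5 TPM added neither passed 2-fold, with log2 ratios of 0.63 for *SR34a* and 0.80 for *SR34b*. Without the addition the TPM values were more than 2-fold apart. They were 0.069 in *fio1-1* and 0.378 in *fio1-5* for *SR34a*, and 1.36 and 2.75 for *SR34b*.

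**Figure D2:**
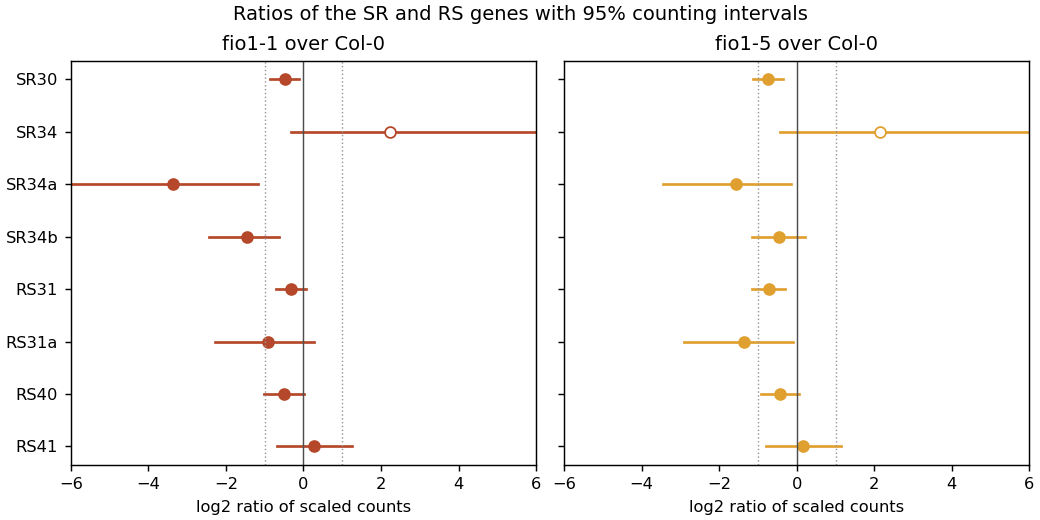
Log2 ratios of scaled counts in *fio1-1* (left) and *fio1-5* (right) over Col-0 for the 8 genes (rows). Points are ratios with 0.5 counts added, lines are exact conditional binomial 95% intervals cut at the axis limits, dotted lines mark 2-fold, and the open point is *SR34*, which had too few counts for the filter. The lines of *SR30* and *SR34a* lie below 0 in both panels, those of *SR34b* only in *fio1-1*, and those of *RS31* and *RS31a* only in *fio1-5*.

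Among the RS genes, *RS31* is known for long-intron splicing that responds to light. It had 96 counts in *fio1-1* and 78 in *fio1-5*, against 131 in Col-0. The Poisson interval of *fio1-5* (61.7 to 97.3) lay below that of Col-0 (109.5 to 155.4), and that of *fio1-1* (77.8 to 117.2) overlapped it. The log2 ratio was −0.32 in *fio1-1* (−0.71 to 0.07) and −0.72 in *fio1-5* (−1.15 to −0.31). Of *RS31*, 1 isoform is listed in the tables, with the long intron removed, so its alternative mRNAs were not analysed here.

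*RS31a*, the paralog of *RS31*, had 9 counts in *fio1-1* and 7 in *fio1-5*, against 19 in Col-0. The 3 Poisson intervals overlapped. Its log2 ratio was −0.91 in *fio1-1* (−2.27 to 0.27) and −1.35 in *fio1-5* (−2.91 to −0.10). Its 3′ end overlaps AT2G46600 on the opposite strand, which had 1470, 927 and 1954 counts in *fio1-1*, *fio1-5* and Col-0, again with Col-0 highest. How the counting treated strand is not given in the sources used here, so reads of the overlap may have been given to either gene.

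*RS40* had 55 counts in *fio1-1* and 62 in *fio1-5*, against 85 in Col-0, and the 3 Poisson intervals overlapped. The log2 ratio was −0.49 in *fio1-1* (−1.01 to 0.01) and −0.43 in *fio1-5* (−0.93 to 0.06), so both intervals just include 0. *RS41*, its paralog, had 21, 21 and 19 counts in *fio1-1*, *fio1-5* and Col-0, with overlapping intervals. Its log2 ratios of 0.27 (−0.69 to 1.25) and 0.17 (−0.80 to 1.14) do not exclude a change of either sign. The genes overlapping *RS40* and *RS41* on the opposite strand had 0 counts in all libraries.

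The isoforms were examined next. The tables list 46 isoforms of the 8 genes, of which 17 had no count in any library and 20 reached 10% of their gene in at least 1 library. The remaining 26 had at most 4 counts in any library. *SR30* and *RS40* were the only members with at least 50 counts in each library and more than 1 counted isoform, so shares are given for the other genes with wide intervals.

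*SR30* mRNA was nearly all of the proximal acceptor type. AT1G09140.2, which uses that TAG acceptor, held 97 of 99 counts in *fio1-1* (98.0%, Clopper-Pearson interval 92.9 to 99.8%) and 87 of 89 in *fio1-5* (97.8%, 92.1 to 99.7%), against 145 of 151 in Col-0 (96.0%, 91.6 to 98.5%). Its stop codon lies 359 bases before the last exon junction, a position often linked to nonsense-mediated decay, and its protein has 256 residues in place of 268. AT1G09140.1, which uses the distal acceptor and encodes the longest protein, had 1 count in *fio1-1* and 0 in *fio1-5* (a floor of 3 counts is 3.37% of the gene, and the upper Clopper-Pearson limit is 4.06%), against 2 in Col-0. AT1G09140.3, with the intron retained, had 1, 2 and 4 counts. The share of the proximal acceptor differed from Col-0 by 1.95 points in *fio1-1* (Newcombe interval −3.53 to 6.61) and 1.73 points in *fio1-5* (−4.25 to 6.44). The lower *SR30* counts of the mutants were thus mostly counts of AT1G09140.2.

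*RS40* was counted in 3 outcomes of its long intron, and its isoforms with another acceptor or donor there had 0 counts. The intron was removed whole in 33 of 55 counts in *fio1-1* (60.0%, 45.9 to 73.0%) and 44 of 62 in *fio1-5* (71.0%, 58.1 to 81.8%), against 61 of 85 in Col-0 (71.8%, 61.0 to 81.0%). These mRNAs encode the longest protein of 350 residues, and nearly all were AT4G25500.4 (31, 44 and 61 counts). Its transcript has 1446 bases, against 1435 in AT4G25500.1, which encodes a protein of the same length. The inner exon was kept in AT4G25500.3, with 20 counts in *fio1-1* (36.4%, 23.8 to 50.4%) and 9 in *fio1-5* (14.5%, 6.86 to 25.8%), against 20 in Col-0 (23.5%, 15.0 to 34.0%). The annotation gives it a protein of 317 residues. The intron was retained in AT4G25500.5, with 2 counts in *fio1-1* (3.64%, 0.44 to 12.5%) and 9 in *fio1-5* (14.5%, 6.86 to 25.8%), against 4 in Col-0 (4.71%, 1.30 to 11.6%).

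The mutants thus stood on opposite sides of Col-0 for the inner exon of *RS40*. Its share was 12.8 points from Col-0 in *fio1-1* (−2.38 to 28.2) and −9.01 points from it in *fio1-5* (−21.1 to 4.30), and both intervals include 0. Between the mutants it was −21.8 points in *fio1-5* relative to *fio1-1* (−36.7 to −6.10). Retention was 9.81 points above Col-0 in *fio1-5* (0.29 to 21.0) and −1.07 points from it in *fio1-1* (−8.34 to 8.08). Removal of the whole intron differed by −11.8 points in *fio1-1* (−27.4 to 3.99) and −0.80 points in *fio1-5* (−15.7 to 13.5). These classes share one total, so a higher share of one lowers the others.

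**Figure D3:**
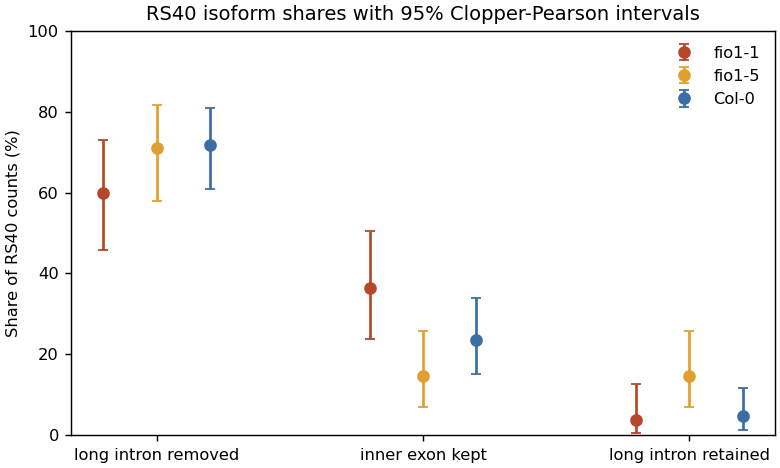
Share of *RS40* counts (vertical axis, %) in isoforms that remove the long intron whole, keep the inner exon or retain the intron, in *fio1-1*, *fio1-5* and Col-0, 1 library each. Points are shares and bars Clopper-Pearson 95% intervals. The inner exon stands at 36.4% in *fio1-1* and 14.5% in *fio1-5*, against 23.5% in Col-0, and retention is highest in *fio1-5*.

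The total shift of isoform shares, the points that would have to move between isoforms to equal the other library, places *RS40* and *SR30* among other genes. For *RS40* it was 16.5 points in *fio1-1* and 9.81 points in *fio1-5*, and for *SR30* 1.95 and 1.73 points, against medians of 1.25 over 1811 genes and 1.28 over 1866 genes. At a cutoff of 20 points, 0 of the 2 members were shifted in *fio1-1*, against 2.65% of genes, and 0 of 2 in *fio1-5*, against 2.14%. Between *fio1-5* and *fio1-1*, *RS40* was shifted by 25.5 points and *SR30* by 1.23 points, so 1 of 2 members passed, against 1.43% of genes. *RS40*, with 55 counts in *fio1-1*, was close to the minimum of 50. A total shift cannot be negative, so counting error alone raises it, and more so where counts are few. It carries no interval here, and the medians were not matched to *RS40* in counts.

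*SR34b* was mostly counted as mRNA with the intron retained. AT4G02430.3 held 12 of 15 counts in *fio1-1* (80.0%, 51.9 to 95.7%) and 26 of 33 in *fio1-5* (78.8%, 61.1 to 91.0%), against 36 of 46 in Col-0 (78.3%, 63.6 to 89.1%). The share was 1.74 points from Col-0 in *fio1-1* (−25.2 to 20.7) and 0.53 points in *fio1-5* (−18.5 to 17.9), so no shift was detectable beside the lower gene count of *fio1-1*. The stop codon of AT4G02430.3 lies 852 bases before the last junction. This does not set it apart, since all 4 modelled isoforms of the gene have the stop over 50 bases before it. AT4G02430.4, with the longest protein and its stop 394 bases before the last junction, had 0 counts in every library. AT4G02430.t1, an isoform with no model in the reference, had 2, 4 and 6 counts in *fio1-1*, *fio1-5* and Col-0.

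In *RS31a*, AT2G46610.1 with the long intron removed had 3 counts in *fio1-1* and 2 in *fio1-5*, against 10 in Col-0. AT2G46610.2, which uses the inner donor, had 4, 2 and 4, and AT2G46610.3, with the intron retained, had 2, 3 and 5 counts in the same genotypes. The share of AT2G46610.1 was 33.3% in *fio1-1* (7.49 to 70.1%) and 28.6% in *fio1-5* (3.67 to 71.0%), against 52.6% in Col-0 (28.9 to 75.6%). The differences from Col-0 of −19.3 points in *fio1-1* (−48.5 to 18.3) and −24.1 points in *fio1-5* (−52.6 to 17.2) were not detectable at this depth. The isoform encoding the longest protein thus held most of the difference in *RS31a* counts, in small numbers.

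*RS41* mostly removed its long intron. AT5G52040.1 held 21 of 21 counts in *fio1-1*, 17 of 21 in *fio1-5* and 17 of 19 in Col-0, or 100%, 81.0% and 89.5%. It encodes 356 residues, and AT5G52040.2 with the longest protein had no count. AT5G52040.4, which keeps an inner exon of 326 bases, had 0, 3 and 1 counts. Between *fio1-5* and *fio1-1* the share of whole removal differed by −19.0 points (−40.0 to 0.15), and the intervals against Col-0 included 0 widely. In *SR34a*, the leading isoform AT3G49430.6 had 0 counts in *fio1-1* and 3 in *fio1-5*, against 13 in Col-0, and AT3G49430.4, with the first intron retained, had 1, 2 and 0. In *SR34*, AT1G02840.4 had 3, 1 and 0 counts in *fio1-1*, *fio1-5* and Col-0, AT1G02840.1 with the longest protein had 1 in each, and AT1G02840.5, AT1G02840.t3, AT1G02840.t4 and AT1G02840.t5 had 0 or 1.

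**Figure D4:**
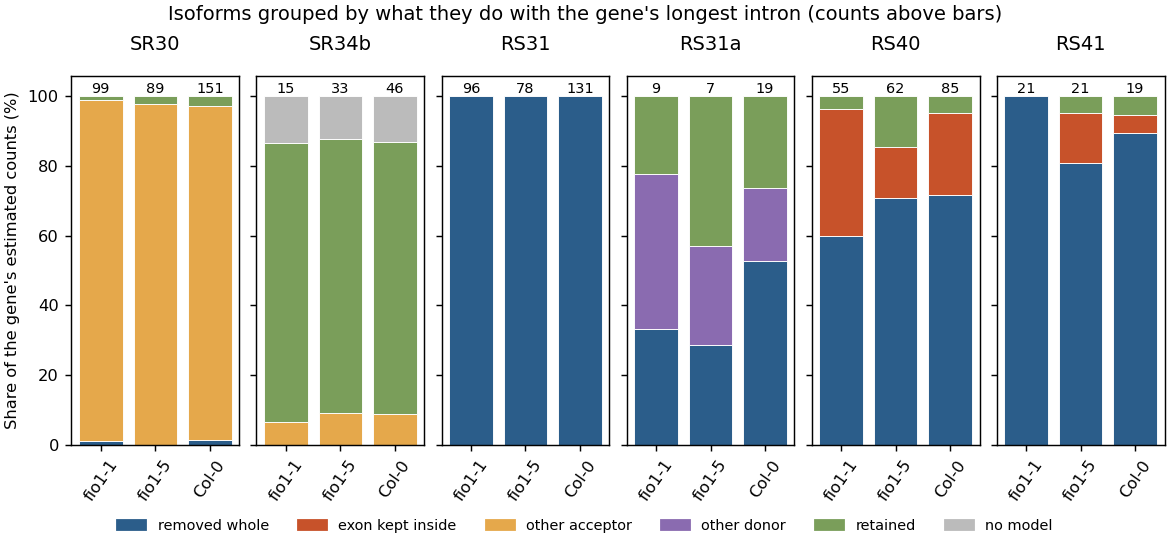
Share of each gene's estimated counts (vertical axis, %) by what its isoforms do with the longest intron, for 6 genes with *fio1-1*, *fio1-5* and Col-0 from left to right in each panel and the counts above the bars. Whole removal fills *RS31* and most of *RS41* and *RS40*, the other acceptor fills *SR30*, and retention fills most of *SR34b*. Bars on few counts, such as *RS31a* with 7 to 19, have wide intervals.

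Isoform shares in these tables also depend on how reads were assigned. AT1G09140.1 and AT1G09140.2 of *SR30* differ from all other isoforms of the gene in 26 and 28 stretches of 31 bases, while AT4G25500.3 and AT4G25500.5 of *RS40* have 0 stretches of their own and are told apart only by combinations. Over 2046 genes with several modelled isoforms and at least 50 counts in each library, the isoform with the most stretches of its own was also the most counted one in Col-0 in 74.9%. Among the members with several isoforms, of which only those with a model were compared, it held for AT4G02430.3 (416 stretches) and, on 1 count, for AT1G02840.1 (199 stretches). It did not hold for AT1G09140.2, AT3G49430.6, AT2G46610.1, AT4G25500.4 or AT5G52040.1. The part of this in the shares was not tested.

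Apart from PTB1, the listed genes that work with SR proteins stayed within 2-fold where they passed the filter. Of the other 10 SR proteins, 9 passed the filter, and 0 were past 2-fold in either direction in *fio1-1* (median log2 ratio −0.16) or *fio1-5* (−0.08). Over all genes tested, 4.29% were lower and 9.5% higher in *fio1-1*, and 4.3% and 7.43% in *fio1-5*. Lists this short may therefore hold 0 such genes without standing apart. The SR protein that missed the filter, *SCL28*, had 9 counts in *fio1-1* and 8 in *fio1-5*, against 2 in Col-0. Its log2 ratios of 2.04 (0.03 to 5.55) and 1.79 (−0.30 to 5.30) rest on few counts. Among the 7 U1 and U2AF genes 0 were past 2-fold, with medians of −0.25 in *fio1-1* and −0.26 in *fio1-5*. The 9 kinase and import genes (−0.22 and −0.05) and the 4 genes of nonsense-mediated decay (−0.13 and −0.19) also had 0. U2AF35A, a small U2AF subunit that recognises the AG of acceptors, had 159 counts in *fio1-1* and 127 in *fio1-5*, against 204 in Col-0. The log2 ratio was −0.23 (−0.54 to 0.08) and −0.66 (−0.99 to −0.33). U2AF35B, its paralog, had 135 and 113 counts in *fio1-1* and *fio1-5*, against 191 in Col-0, with log2 ratios of −0.37 (−0.70 to −0.04) and −0.73 (−1.08 to −0.39). In *fio1-5* these ratios stood beside −0.73 for *SR30* and −0.72 for *RS31*.

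U1-70K, the U1 protein that SR proteins contact at donors, had 31 counts in *fio1-1* and 54 in *fio1-5*, against 55 in Col-0, with a log2 ratio of −0.69 in *fio1-1* (−1.38 to −0.04). SR45, an SR-like factor that binds U1-70K and the small U2AF subunits, had 1, 6 and 6 counts in *fio1-1*, *fio1-5* and Col-0 and did not pass the filter. The 5 PTB and GRP genes encode other regulators of alternative splicing, and 1 of them, PTB1, was at least 2-fold higher in both mutants. Of all genes tested, 9.5% were in *fio1-1* and 7.43% in *fio1-5*. PTB1 passed the filter only through its counts in the mutants. Its call is therefore a description and supports no statement about the list against these shares. PTB1, a polypyrimidine tract binding protein, had 17 counts in *fio1-1* and 21 in *fio1-5*, against 3 in Col-0. Its log2 ratio was 2.44 in *fio1-1* (0.84 to 5.05) and 2.64 in *fio1-5* (1.09 to 5.22), against few Col-0 counts.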

How the data were processed

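Members, gene lists and alternatives were chosen with earlier results of these data known. Per the labels and the paper's methods, the authors base called Nanopore reads with Guppy, filtered them with Nanofilt, corrected them with Fclmr2 and mapped them with minimap2 2.17-r941. That the tables come from these reads is taken from the paper and is not stated in them. The tool that assigned reads to isoforms, its annotation and its handling of strand are not given in the sources used here. The authors deposited an estimated count per isoform, without normalization, and a TPM value per isoform, scaled to isoform length and library. They also deposited correlation coefficients between libraries, which were not used. The column named *fio1-2* is *fio1-5* by the labels.

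Gene counts are sums of isoform counts, rounded after summing. Scaling was by TMM (edgeR 4.0.16, R 4.3.3), with size factors from DESeq2 1.42.0 and total counts, deposited TPM, other filters, cutoffs and additions as alternatives. Log2 ratios had 0.5 counts added, or 0.5 TPM where they came from deposited TPM. Their intervals are exact conditional binomial intervals at 95% without an addition. Poisson intervals of counts are not scaled for library size, so whether they overlap does not compare scaled levels. Shares have Clopper-Pearson intervals and their differences Newcombe intervals. With 1 column per genotype no p-value was computed. Intervals cover counting error only, since reads of 1 library are no replicates of a genotype.

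Isoforms were described with the TAIR10.1 models by RefSeq, matched by identifier. The deposited values fit these models, since the ratio of count to TPM followed the TAIR10.1 transcript length less 249 bases within 2 bases for 99.3% of isoforms in each library. All 8 members are named, and so is each isoform that reached 10% of its gene in at least 1 library, with any other named isoform chosen after its values were seen. Listed genes are named where they passed 2-fold or are direct partners (SR45, U1-70K, U2AF35A, U2AF35B). A floor of 3 counts equals 0.698, 0.648 and 0.637 CPM in *fio1-1*, *fio1-5* and Col-0. The code was tested on simulated data. Other steps used Python 3.11.15 with scipy 1.17.1, numpy 2.4.6 and pandas 2.3.3, and figures matplotlib 3.10.9.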

Additional observations from a re-analysis of the deposited data

How the results depend on the processing

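No replicate could be left out. No paired analysis was possible because the tables hold 1 column per genotype. The 96 log2 ratios of single members under total counts, DESeq2 size factors, deposited TPM and 2 counts added all stayed within the counting interval of the value reported, although some of those of *SR34* and *SR34a* moved by more than 1.5-fold with TPM or with 2 counts added. The *RS40* shares under TPM shares or with only isoforms of at least 5 counts also stayed within their counting intervals.

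The number of members past 2-fold rests on thinly counted genes. With a minimum of 100 counts, 0 were lower in *fio1-1*, 0 in *fio1-5* and 0 higher in *fio1-5* relative to *fio1-1*. Without a filter, 1 was higher in each mutant over Col-0 (*SR34*). At 1.5-fold, 4 were lower in *fio1-5*. Relative to *fio1-1*, 1 was higher in *fio1-5* with 2 counts added and 0 with deposited TPM and 0.5 TPM added. Without that addition the TPM values of *SR34a* and *SR34b* were more than 2-fold apart.

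Numbers of all genes depend on the cutoff and filter, and are given as lower and higher. Those from TPM had 0.5 TPM added to each value. For *fio1-1* over Col-0 the alternatives gave 2131 and 2919 (1.5-fold), 164 and 621 (100 counts), 2473 and 3628 (no filter), and 953 higher with TPM. For *fio1-5* over Col-0 they gave 1984 and 2571, 202 and 407, and 2376 and 3264 in the same order, with 598 lower and 636 higher under TPM, against 706 and 1220. For *fio1-5* over *fio1-1* they gave 1975 and 1590, 286 and 64, and 2545 and 2394, with 565 lower and 236 higher under TPM, against 814 and 535. Among the 3040 genes with at least 3 isoforms, an alternative chosen after seeing the data, 244 were lower and 255 higher in *fio1-1*, 208 and 206 in *fio1-5*, and 156 and 147 in *fio1-5* over *fio1-1*. Members were set against 8.03% lower in *fio1-1* and 6.84% lower in *fio1-5* there.

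Genes with shifted isoform shares in *fio1-1*, *fio1-5* and *fio1-5* relative to *fio1-1* numbered 177, 183 and 133 at 10 points, 18, 14 and 7 at 30 points, 186, 192 and 131 with 20 counts, and 13, 12 and 10 with 100 counts in each library. Under TPM shares, 41 were shifted between the mutants. The causes were not tested beyond the fewer or more genes each filter admits.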

Other observations

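Outside the 8 genes, the isoforms of the SC35-like factor *SCL30A* (AT3G13570), another SR protein, shifted by 8.2 points in *fio1-1* and 12.4 points in *fio1-5* relative to Col-0, and by 5.99 points in *fio1-5* relative to *fio1-1*. The medians over other genes were 1.25, 1.28 and 1.20 points, all 3 shifts are below the cutoff of 20 points, and they carry no interval. *SCL30A* had 66 counts in *fio1-1* and 66 in *fio1-5*, against 81 in Col-0. *RSZ21*, a zinc knuckle SR protein, had 129 counts in *fio1-1* and 114 in *fio1-5*, against 196 in Col-0, with log2 ratios of −0.47 (−0.80 to −0.14) and −0.75 (−1.10 to −0.42). Its paralog *RSZ22* had 175 counts in *fio1-1* and 144 in *fio1-5*, against 214 in Col-0, with log2 ratios of −0.16 (−0.46 to 0.14) and −0.54 (−0.86 to −0.23). Another paralog, *RSZ22a*, had 133, 178 and 142 counts in *fio1-1*, *fio1-5* and Col-0. These genes were chosen after their values were seen.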
